A study of Mus musculus with 12 samples.

Results

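The 7 genes described here encode subunits of the GABA-A receptor: Gabra2, Gabra3, Gabra4 and Gabra5 (alpha subunits), Gabrb1 and Gabrb2 (beta subunits) and Gabrd (the delta subunit). They were taken by a list of symbols that uses no measured value, but were chosen with earlier results of these data known. Each has 1 row among the 19268 genes of the table. Of the 12 other GABA-A receptor subunit genes looked for, 10 have a row, so 17 subunit genes could be seen in all. RNA was sequenced from the forebrain, dissected without the olfactory bulb, of male mice of the C57BL/6J strain, either juvenile (25 days after birth, P25) or adult (60 days, P60). Mice were wild-type (WT) or Shank3 knock-out (KO), and the knock-out was a homozygous loss of internal exons of this gene, whose product organizes the postsynaptic side of excitatory synapses. The 4 groups, P25-WT, P25-KO, P60-WT and P60-KO, held 3 libraries each. Whether the ages were sequenced in the same run is not given in the sources used here, so age and run cannot be told apart.

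GABA-A receptors are chloride channels that open when GABA, the main inhibitory transmitter of the forebrain, binds at the border between a beta and an alpha subunit. The alpha subunit sets much of the receptor's affinity, kinetics and drug sensitivity, the beta subunit carries sites used for trafficking, and the delta subunit takes the place of a gamma subunit in receptors outside the synapse that give a steady inhibitory current. The subunit genes lie in chromosomal clusters, and the subunit make-up of the receptors is known to change as the brain matures after birth.

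The genes of Gabra2 (ENSMUSG00000000560, chr5:70957597-71095849, minus strand), Gabra4 (ENSMUSG00000029211, chr5:71569749-71658308, minus strand) and Gabrb1 (ENSMUSG00000029212, chr5:71658113-72149037, plus strand) are neighbours on chromosome 5 (GRCm38, GENCODE). Gabra5 (ENSMUSG00000055078) lies at chr7:57407672-57510059 on the minus strand, Gabrb2 (ENSMUSG00000007653) at chr11:42419757-42629028 on the plus strand, Gabra3 (ENSMUSG00000031343) at chrX:72432681-72656848 on the minus strand and Gabrd (ENSMUSG00000029054) at chr4:155384980-155398112 on the minus strand. Gabra4 and Gabrb1 point away from each other and overlap at their 5' ends by 196 bp, of which 46 bp are exon of both. Whether the counting used strand is not given in the sources used here, so reads from those 46 bp, and from 148 exon bp of Gabra5 that overlap the antisense gene Gm9962, are uncertain. At most 1.02% of the 31-base words of a member's transcripts, in Gabra2, also occurred in another gene on the same strand.

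Promoter windows from RefSeq (GRCm38.p6), 300 bases each with 250 bases before and 50 after the annotated start, were found for 6 of the 7 genes, 10 windows in all, and none was given for Gabrd. Those of the 3 genes that were higher at P60, and of Gabra4, whose start lies 387 bp from the first start of Gabrb1, are shown on the gene's own strand with every CG dinucleotide in capitals. They come from chr5:71657671-71657970 (Gabrb1, the first of 2 windows, plus strand), chr5:71658259-71658558 (Gabra4, minus strand), chr11:42420190-42420489 (Gabrb2, the first of 3 windows, plus strand) and chrX:72656758-72657057 (Gabra3, the first of 2 windows, minus strand).
Gabrb1: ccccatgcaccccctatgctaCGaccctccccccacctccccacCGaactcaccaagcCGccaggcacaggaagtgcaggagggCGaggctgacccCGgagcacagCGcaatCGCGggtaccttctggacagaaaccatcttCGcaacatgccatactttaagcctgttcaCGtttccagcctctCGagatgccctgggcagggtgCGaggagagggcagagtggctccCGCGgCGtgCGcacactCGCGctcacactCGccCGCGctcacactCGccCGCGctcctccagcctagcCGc
Gabra4: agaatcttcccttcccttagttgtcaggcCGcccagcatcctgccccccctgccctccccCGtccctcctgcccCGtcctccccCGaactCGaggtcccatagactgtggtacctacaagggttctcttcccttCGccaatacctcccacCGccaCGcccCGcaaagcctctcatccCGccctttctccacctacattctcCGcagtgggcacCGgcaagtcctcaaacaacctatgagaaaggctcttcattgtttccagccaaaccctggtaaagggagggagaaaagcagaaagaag
Gabrb2: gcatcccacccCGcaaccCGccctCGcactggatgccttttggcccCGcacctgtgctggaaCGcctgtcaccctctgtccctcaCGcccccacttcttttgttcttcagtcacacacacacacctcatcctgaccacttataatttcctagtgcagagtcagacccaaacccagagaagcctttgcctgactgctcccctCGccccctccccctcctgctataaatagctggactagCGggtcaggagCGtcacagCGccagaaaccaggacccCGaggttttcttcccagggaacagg
Gabra3: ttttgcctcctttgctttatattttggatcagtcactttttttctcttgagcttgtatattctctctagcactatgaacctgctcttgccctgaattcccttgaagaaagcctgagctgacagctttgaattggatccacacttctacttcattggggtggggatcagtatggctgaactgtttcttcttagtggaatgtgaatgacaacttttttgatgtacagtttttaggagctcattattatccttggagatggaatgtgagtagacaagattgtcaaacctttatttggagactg
The windows differed widely in CG content. The first window of Gabrb1 held 25 CG dinucleotides and its second 9, and that of Gabra2 held 25. Gabra5 had 13, Gabra4 had 12, the 3 windows of Gabrb2 had 11, 9 and 9, and both windows of Gabra3 had 0. The median of all 32851 windows was 7. The letters GGGCGG, on either strand, occurred in 35.7% of all windows and in windows of Gabra2, Gabra4 and Gabrb2. TATAAA, on either strand, occurred in 13.6% of all windows. In Gabrb2 it lay on the gene's strand at position -30 from the start, and in Gabra3 on the opposite strand at position -235. These matches describe letters only, and neither was found in all 3 genes that were higher at P60.

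The values are normalized counts as deposited, which sum to between 30568259 and 32348554 per library. They are not whole reads, so the depth behind them is unknown and no counting interval was computed. Shank3 itself was lower in KO than in WT mice, with a log2 fold change of -1.06 at P25 and -0.99 at P60 (adjusted p = 0.0134 and 0.0022, limma with Benjamini-Hochberg adjustment, BH). The P25 call was lost when P25-KO replicate 1 or 2 was left out and under 4 other settings, and the P60 call without an intensity trend in the variance model. Markers of neurons, glia and striatal projection cells were present in every library. The summed cerebellar markers (4 of 4 with a row) ranged from 23.0 to 1584 at P60 and from 40.3 to 83.8 at P25. They were highest in P60-WT replicate 2 and P60-KO replicate 1, where Gabra6, a subunit of cerebellar granule cells, was at 221 and 68.5 against at most 4.40 elsewhere. P25-WT replicate 2 also stood apart for several of the genes below. In bulk tissue, fewer cells of a type and less RNA per cell cannot be told apart.

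The main difference was between the ages. Over both genotypes, Gabrb2, Gabrb1 and Gabra3 were higher at P60 than at P25, and Gabrd was lower, while Gabra2, Gabra4 and Gabra5 did not pass the test. The rises ran from 1.17-fold to 1.32-fold, and Gabrd was at 0.842 of its P25 level. Adjusted p-values under 0.05 were reached by 3 of 7 genes with higher and 1 of 7 with lower values, where 18.3% and 19.3% of all 17594 genes tested did so. The family as a list was not tested, and its members were chosen with earlier results of these data known.

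**Figure D1:**
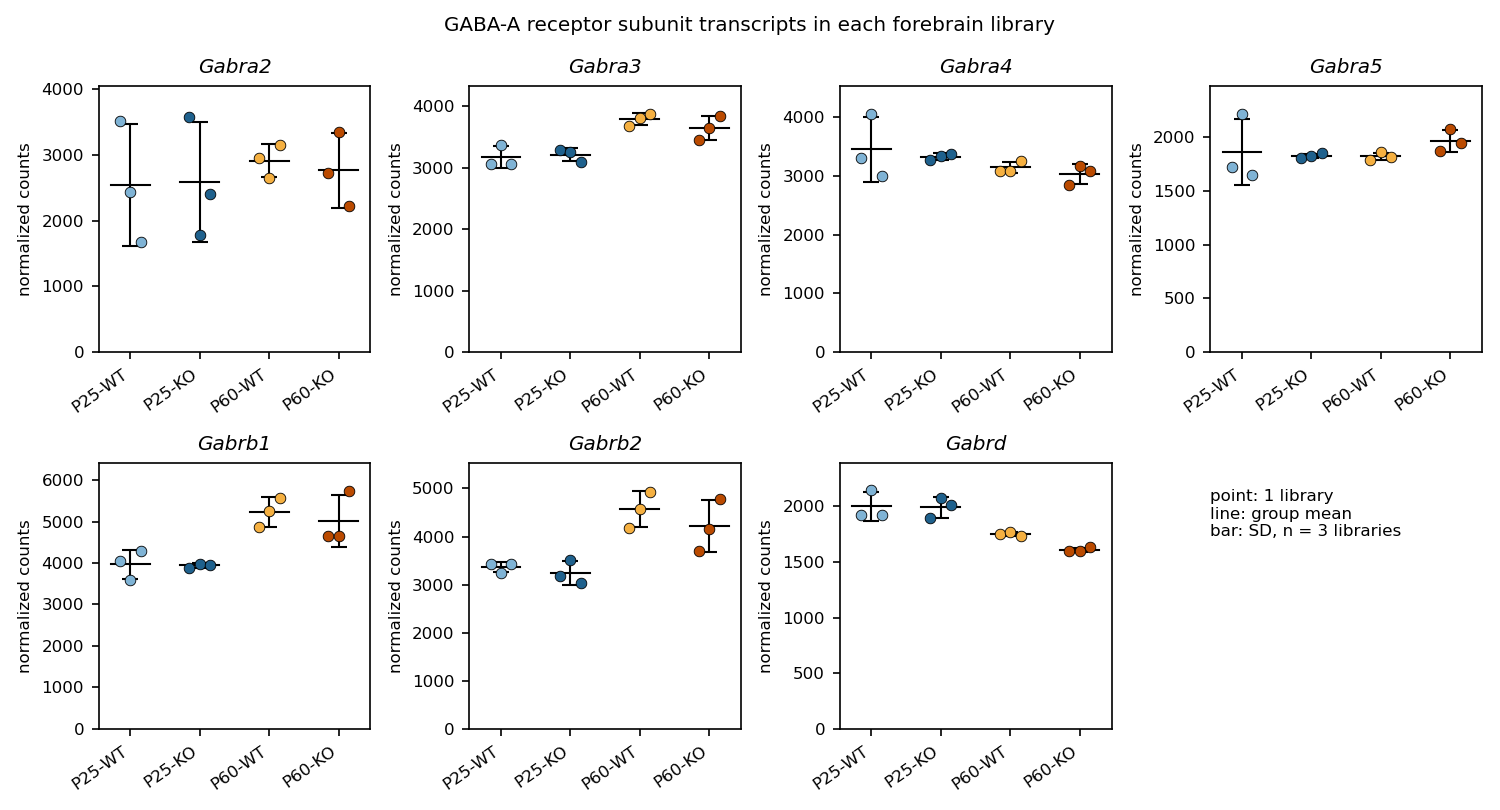
Normalized counts of the 7 subunit genes (vertical axis, from 0) in the 12 libraries, by group; points are libraries, long lines group means and bars the SD (n = 3). Gabrb1, Gabrb2 and Gabra3 lie higher in all P60 than in all P25 libraries and Gabrd lower, and the P25 points of Gabra2 lie from 1672 to 3579.

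Gabrb2 encodes a widely expressed beta subunit of the adult brain. At P25, Gabrb2 had 3172, 3518 and 3042 normalized counts in the KO libraries and 3422, 3245 and 3429 in the WT libraries. At P60, Gabrb2 had 3709, 4168 and 4776 in the KO libraries and 4188, 4576 and 4935 in the WT libraries. All 6 P60 libraries lay above all 6 P25 libraries, and the P60 libraries were spread more widely. The log2 fold change over both genotypes was 0.41 ± 0.06 (SE; 95% interval 0.27 to 0.54; adjusted p = 0.000206, limma, BH). It was 0.44 ± 0.08 in WT mice (adjusted p = 0.0177) and 0.37 ± 0.09 in KO mice (adjusted p = 0.0175; limma, BH), with n = 3 libraries per group.

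Gabrb1, the other beta subunit examined, is the neighbour of Gabra4 on chromosome 5. At P25, Gabrb1 had 3884, 3982 and 3956 normalized counts in the KO libraries and 4039, 3587 and 4282 in the WT libraries. At P60, Gabrb1 had 4655, 4646 and 5733 in the KO libraries and 4857, 5256 and 5565 in the WT libraries. Again the ages did not overlap, and the lowest P60 library was above the highest P25 library. Its log2 fold change was 0.37 ± 0.06 over both genotypes (SE; 95% interval 0.24 to 0.50; adjusted p = 0.000332, limma, BH), 0.40 ± 0.09 in WT mice (adjusted p = 0.0303) and 0.34 ± 0.08 in KO mice (adjusted p = 0.0148). Gabrb1 has the longest transcript of the 7 genes, 13.7 kb, and the 409 tested genes with a transcript of 10 kb or longer had a median log2 fold change of 0.20, of which 76.5% were above 0. After the dependence of each library on transcript length and GC content was removed, Gabrb1 was at 0.10 over both genotypes (adjusted p = 0.0861), 0.11 in WT and 0.09 in KO mice (adjusted p = 0.262 and 0.392; limma, BH), so its call rests on not removing that trend. Gabrb2, with a longest transcript of 3.99 kb, was at 0.30 over both genotypes after the same step (adjusted p = 0.00102), and at 0.34 in WT and 0.27 in KO mice (adjusted p = 0.0232 and 0.0537; limma, BH).

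Gabra3, an X-linked alpha subunit prominent in the thalamic reticular nucleus and in monoaminergic cells, showed a smaller and tighter rise. At P25, Gabra3 had 3290, 3245 and 3093 normalized counts in the KO libraries and 3060, 3372 and 3062 in the WT libraries. At P60, Gabra3 had 3451, 3648 and 3840 in the KO libraries and 3675, 3808 and 3873 in the WT libraries. The ages did not overlap, although the highest P25 library, WT replicate 2, came close to the lowest P60 library. The log2 fold change was 0.22 ± 0.04 over both genotypes (SE; 95% interval 0.13 to 0.31; adjusted p = 0.00122), 0.18 ± 0.06 in KO mice (adjusted p = 0.0497) and 0.26 ± 0.07 in WT mice, where it missed the threshold (adjusted p = 0.0579; limma, BH). Without P25-WT replicate 2 the WT value was 0.31 (adjusted p = 0.0082; limma, BH). The KO call was lost without any 1 of the 6 KO libraries, with adjusted p-values from 0.0508 to 0.15 (limma, BH). Removing the length and GC trend left 0.11 over both genotypes (adjusted p = 0.029) and 0.06 in KO mice (adjusted p = 0.425; limma, BH).

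Gabrd encodes the delta subunit of extrasynaptic receptors, abundant in dentate granule cells, thalamus and striatum, and was the member that was lower at P60. At P25, Gabrd had 1893, 2080 and 2009 normalized counts in the KO libraries and 1922, 2149 and 1927 in the WT libraries. At P60, Gabrd had 1595, 1598 and 1633 in the KO libraries and 1752, 1772 and 1737 in the WT libraries. Every P60 library lay below every P25 library, and the libraries of each P60 group were within a few percent of each other. The log2 fold change was -0.25 ± 0.05 over both genotypes (SE; 95% interval -0.35 to -0.15; adjusted p = 0.000865) and -0.31 ± 0.06 in KO mice (adjusted p = 0.00691; limma, BH). In WT mice it was -0.19 ± 0.08, which did not pass the threshold (adjusted p = 0.156; limma, BH). The age effects of the genotypes did not differ detectably (interaction -0.12 ± 0.09, 95% interval -0.32 to 0.08, adjusted p = 1; limma, BH). Removing the length and GC trend left -0.15 over both genotypes (adjusted p = 0.0158; limma, BH).

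Gabra4 encodes the alpha subunit that commonly joins delta in the forebrain. At P25, Gabra4 had 3264, 3346 and 3369 normalized counts in the KO libraries and 3300, 4056 and 2994 in the WT libraries. At P60, Gabra4 had 2847, 3173 and 3077 in the KO libraries and 3087, 3091 and 3259 in the WT libraries. The ages overlapped in WT mice, where P25 replicate 2 was the highest of all 12 libraries and P25 replicate 3 lay below the P60 libraries, and did not overlap in KO mice. Its log2 fold change was -0.13 ± 0.06 over both genotypes (SE; 95% interval -0.26 to 0.00; adjusted p = 0.112), -0.13 ± 0.06 in KO mice (adjusted p = 0.123) and -0.12 ± 0.11 in WT mice (adjusted p = 0.486; limma, BH). It passed over both genotypes without P25-WT replicate 3 (-0.17, adjusted p = 0.0235) and with the length and GC trend removed (-0.26, adjusted p = 0.00379; in KO mice -0.27, adjusted p = 0.011; limma, BH). Without P25-WT replicate 2 the WT value was 0.00. Set against its neighbour Gabrb1 in the same libraries, the ratio of Gabrb1 to Gabra4 normalized counts ran from 0.884 to 1.43 at P25 and from 1.46 to 1.86 at P60.

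Gabra5, the alpha subunit of hippocampal extrasynaptic receptors, showed no detectable age difference. At P25, Gabra5 had 1804, 1819 and 1848 normalized counts in the KO libraries and 1724, 2216 and 1651 in the WT libraries. At P60, Gabra5 had 1866, 2077 and 1947 in the KO libraries and 1790, 1857 and 1814 in the WT libraries. In KO mice all P60 libraries lay just above all P25 libraries, and in WT mice P25 replicate 2 lay above and the other P25 replicates below every P60 library. Its log2 fold change was 0.04 ± 0.06 over both genotypes (SE; 95% interval -0.10 to 0.18; adjusted p = 0.645), 0.10 ± 0.06 in KO mice (adjusted p = 0.246) and -0.02 ± 0.11 in WT mice (adjusted p = 0.92; limma, BH). Without P25-WT replicate 2 the value over both genotypes was 0.11 (adjusted p = 0.0387; limma, BH), and in WT mice it was 0.11.

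Gabra2 encodes an alpha subunit enriched at synapses on the axon initial segment. At P25, Gabra2 had 3579, 1785 and 2397 normalized counts in the KO libraries and 3518, 2439 and 1672 in the WT libraries. At P60, Gabra2 had 2729, 3347 and 2216 in the KO libraries and 2948, 2644 and 3148 in the WT libraries. Within a P25 group the highest library was at 2.0 (KO) and 2.1 (WT) times the lowest, and all 4 groups overlapped. The log2 fold change between ages was 0.20 ± 0.18 over both genotypes (SE; 95% interval -0.18 to 0.57; adjusted p = 0.404, limma, BH), so these libraries leave room for a change of either sign.

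The spread of Gabra2 between libraries of the same group set it apart from the other members. Its within-group SD on the log2 scale was 0.40, larger than that of 88.3% of 17594 genes and of 99.7% of the 2422 genes whose mean lay within 1.5-fold of its own. That of Gabra4, Gabra5, Gabrb1 and Gabrb2 was 0.12, below the median of all genes (0.16) but larger than that of 69.9%, 65.2%, 70.5% and 72.0%, respectively, of the genes within 1.5-fold of their own means. Gabrd and Gabra3 were the tightest, both at 0.06, larger than 9.03% and 17.6% of the genes at their levels. Over the 12 libraries the deviations of Gabra2 from its group means correlated with those of the other members at between -0.44 and 0.20 (Pearson, with no test). What moved with the spread of Gabra2 was not tested.

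**Figure D2:**
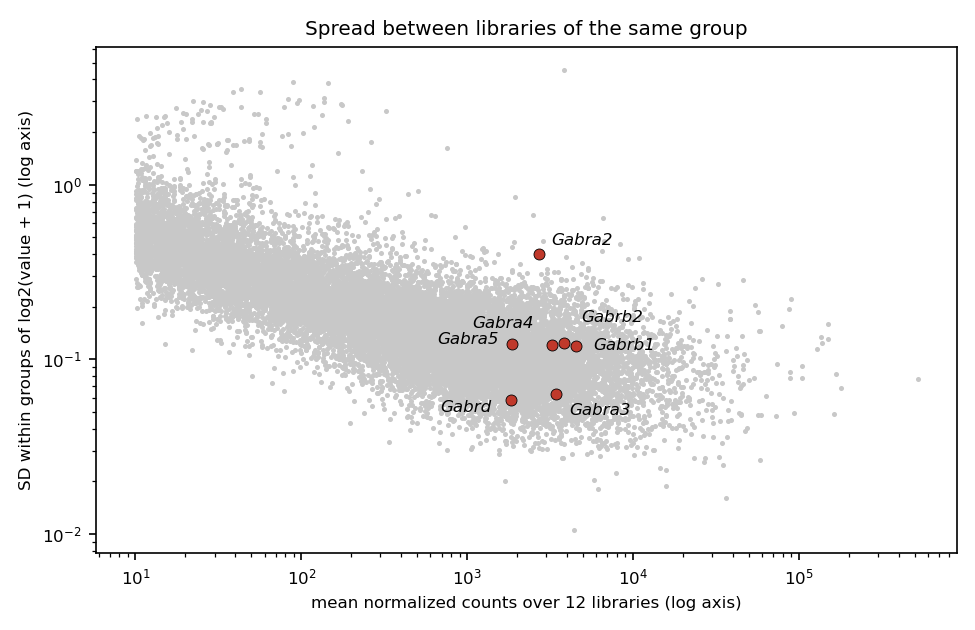
SD of log2(value + 1) within groups (vertical log axis) against mean normalized counts over the 12 libraries (horizontal log axis); grey points are all 17594 genes tested and red points the 7 subunit genes. Gabra2, at 0.40, lies above nearly all genes of its level, and Gabrd and Gabra3, at 0.06, lie near the lower edge.

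Within a genotype, with 6 libraries in the fit, 2 members were called in WT and 4 in KO mice, and with all 12 libraries in the fit 3 were called in each. In WT mice 2 of 7 genes were called higher at P60 and 0 lower (limma, BH; Gabrd was lower at an unadjusted p under 0.05), where 3.66% and 4.99% of 17581 genes were. In KO mice 3 of 7 were called higher and 1 lower, where 9.37% and 11.3% of 17596 genes were. The P60 and P25 libraries did not overlap for 3 genes with higher and 1 with lower values in WT mice (17.6% and 18.4% of all genes), for 4 and 2 in KO mice (18.9% and 20.5%), and for 3 and 1 over both genotypes (8.79% and 10.8%). The WT calls were sensitive to single libraries. Gabrb1 lost its call without P25-WT replicate 1, P60-WT replicate 1, P60-WT replicate 2 or P60-WT replicate 3 (adjusted p = 0.0898, 0.0753, 0.09 and 0.147), and Gabrb2 without P25-WT replicate 1, P60-WT replicate 2 or P60-WT replicate 3 (adjusted p = 0.0668, 0.0648 and 0.104; limma, BH). In KO mice Gabrb2 lost its call when replicate 1 or replicate 3 of P25-KO was left out (adjusted p = 0.0563 and 0.0634; limma, BH). Without an intensity trend in the variance model, Gabrb1 and Gabrb2 were no longer called in WT mice (adjusted p = 0.0985 and 0.0753) or in KO mice (adjusted p = 0.0816 and 0.0901; limma, BH). Over both genotypes Gabra3, Gabrb1, Gabrb2 and Gabrd were called without each of the 12 libraries in turn.

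Genotype was compared to ask whether loss of Shank3 alters these transcripts. No member differed between KO and WT mice after adjustment at either age. At P25, 0 of 7 genes were called (limma, BH; 0.00571% of 17515 genes, that is, Shank3 alone), 0 had an unadjusted p under 0.05 against 238 of all genes, and the log2 fold changes lay between -0.06 and 0.03. All 7 genes overlapped between the genotypes at P25, where 4.76% of all genes did not. At P60, 0 of 7 were called (limma, BH; 0.00568% of 17610 genes), and 1, Gabrd, had an unadjusted p under 0.05 against 440 of all genes. Gabrd was lower in all P60-KO than in all P60-WT libraries, with 1609 ± 21.1 against 1754 ± 17.9 normalized counts (SD, n = 3) and a log2 fold change of -0.12 ± 0.05 (SE; 95% interval -0.24 to -0.01; adjusted p = 1, limma, BH). Gabra5 was higher in all P60-KO than in all P60-WT libraries, 1963 ± 106 against 1820 ± 33.7 (SD, n = 3), at 0.11 ± 0.06 (95% interval -0.02 to 0.24; adjusted p = 1, limma, BH). These were the 2 of 7 genes whose P60 genotypes did not overlap, and 7.79% of all genes did not.

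The intervals bound what a genotype difference could be. At P25, those of Gabra3, Gabrb1, Gabrb2 and Gabrd lay within -0.23 and 0.19 on the log2 scale, and those of Gabra4 and Gabra5 within -0.28 and 0.23, whereas that of Gabra2 ran from -0.63 to 0.69. At P60, those of the 6 genes other than Gabra2 lay within -0.33 and 0.24, and that of Gabra2 ran from -0.39 to 0.20. Without P25-WT replicate 2 the P25 values of Gabra4 and Gabra5 moved from -0.04 to 0.08 and from -0.02 to 0.11, and neither was called (adjusted p = 0.939 for each; limma, BH). Over both ages 0 of 7 genes were called (limma, BH; 0 at an unadjusted p under 0.05 against 361 of all genes, 0.00568% of 17594 called), with log2 fold changes from -0.09 for Gabrb2 to 0.04 for Gabra5. In the genotype by age interaction 0 of 7 were called (limma, BH; 0 at an unadjusted p under 0.05 against 288 of all genes, 0% of 17594 called), with values from -0.12 to 0.13.

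**Figure D3:**
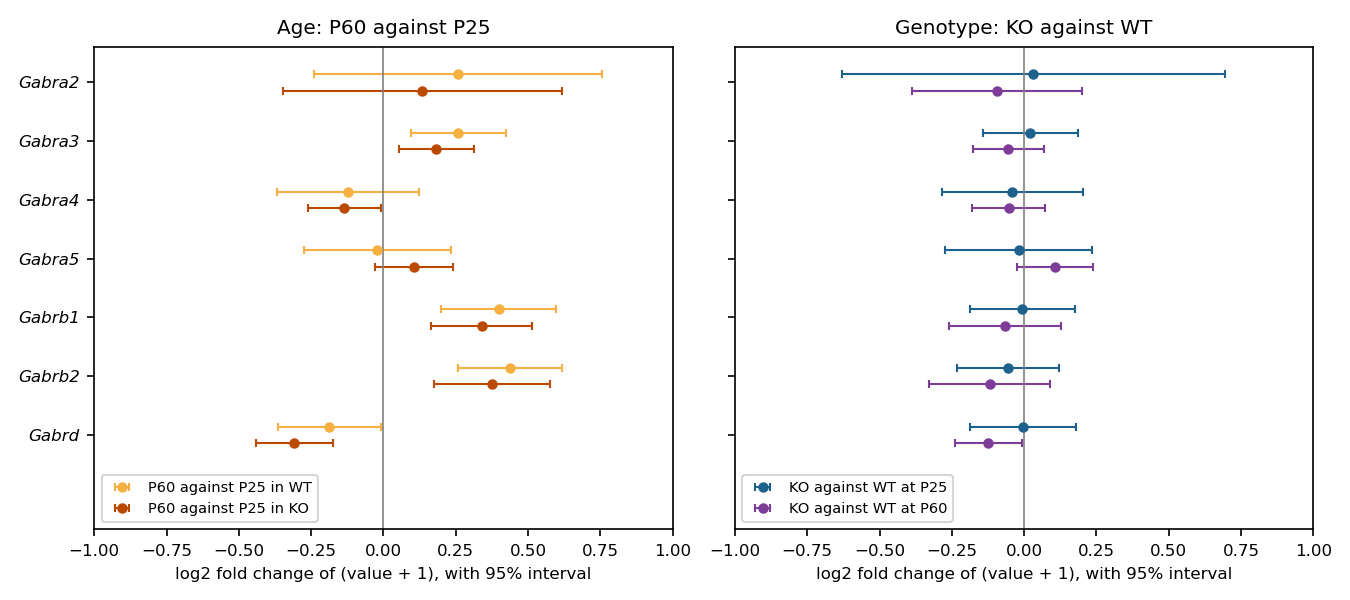
Log2 fold changes of the 7 subunit genes on the log2(value + 1) scale (horizontal axis) with 95% intervals, for P60 against P25 in each genotype (left) and KO against WT at each age (right). The age intervals of Gabra3, Gabrb1, Gabrb2 and Gabrd exclude 0 in both genotypes, before adjustment, as does that of Gabra4 in KO mice, and of the genotype intervals that of Gabrd at P60, from -0.24 to -0.01, excludes 0.

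Levels can be compared between genes only per length. The methods mention a normalization of counts to gene size, and how it entered the deposited values is not given in the sources used here. Per kilobase of all exons joined, the mean over the 12 libraries was 880 normalized counts for Gabra3, 640 for Gabrd, 628 for Gabra5, 605 for Gabrb2, 532 for Gabra4, 354 for Gabra2 and 328 for Gabrb1. On this scale Gabra3 stood above the others in every library. Gabrd, Gabra5, Gabrb2 and Gabra4 overlapped each other, with SDs over the 12 libraries of 64.9, 51.2, 103 and 49.3, and Gabra2 and Gabrb1 overlapped at the lower end (SD 82.9 and 50.7). Per kilobase, Gabrb2 was at 529 ± 16.3 in P25-WT and 718 ± 58.8 in P60-WT mice, and Gabrd at 695 ± 45.2 and 610 ± 6.23 (SD, n = 3). On this scale Gabrd was the higher of the pair at P25 and Gabrb2 at P60, but per kilobase of the median protein-coding transcript Gabrb2 was also the higher at P25 (1218 against 1041 in P25-WT and 1174 against 1038 in P25-KO mice). In normalized counts the ratio of Gabrb2 to Gabrd ran from 1.51 to 1.78 in the 6 P25 libraries (median 1.68) and from 2.33 to 2.92 in the 6 P60 libraries (median 2.59). The order between genes depends on the length used: per kilobase of the median protein-coding transcript, Gabrb2 came first at 1392 and Gabra4 second at 1346, ahead of Gabra3 at 1266, and per kilobase of the longest, Gabrb2 (965) and Gabrd (957) came ahead of Gabra3 (942).

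**Figure D4:**
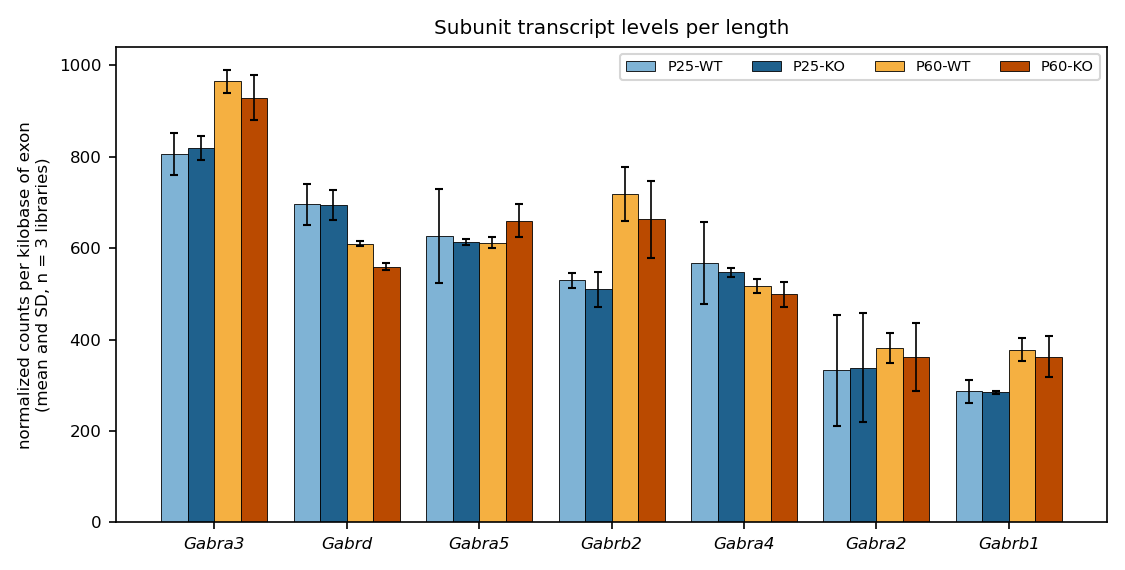
Normalized counts per kilobase of joined exons (vertical axis, from 0) of the 7 subunit genes in the 4 groups; bars are means and error bars the SD (n = 3 libraries). Gabra3 is the highest in each group, and Gabrb2 lies above Gabrd at P60.

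The members did not vary as 1 block across the libraries. Over the 12 libraries, which share the age difference, Gabrb1 and Gabrb2 correlated at r = 0.95 and Gabra3 and Gabrb2 at 0.91. After the group means were removed, Gabrb1 and Gabrb2 correlated at 0.78 and Gabra4 and Gabra5 at 0.95, with P25-WT replicate 2 high for Gabra4 and Gabra5 and lowest for Gabrb1. Among 14455 genes, those most like each member over the 12 libraries were Lcor and Stxbp5l for Gabrb1 (both r = 0.98), Dchs2 and Cdh7 for Gabrb2 (both 0.98), Snx13 and Kpna4 for Gabra3 (both 0.98), and Cstf2t and Lgals9 for Gabrd (both 0.96). For Gabra4 they were Nipa1 (0.95) and Ywhab (0.94), and for Gabra5 Mcts1 (0.95) and Fam92a (0.94). Gabra2 had no close match, the nearest being Optc (0.85), which had a mean of 19.6 normalized counts, and Wdhd1 (0.82).

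Among the other subunits, 9 could be tested. Over both genotypes 4 were called higher and 1 lower at P60, where 18.3% and 19.3% of all genes were. The median log2 fold change of the 9 was 0.12, against 0.00 for all genes. Gabre, the epsilon subunit beside Gabra3 on the X chromosome, was lower, at -0.61 on the log2 scale (adjusted p = 0.000339), whereas Gabrr2, a rho subunit known from the retina, was higher, at 1.34, from a low level, 11.5 to 64.6 normalized counts (adjusted p = 0.00154; limma, BH). Other neighbours of members were not called. Gabrq, the theta subunit beside Gabra3, was at 0.12 (adjusted p = 0.339), Gabrg1, in the Gabra2 cluster, at 0.01 (adjusted p = 0.922), and Gabrg3, beside Gabra5, at -0.04 (adjusted p = 0.547; limma, BH). Gabra6, in the Gabrb2 cluster, was above 4.40 in the 2 libraries with cerebellar markers and in no other. Without those 2 libraries Gabrb2 was at 0.45 and Gabrd at -0.25 over both genotypes (adjusted p = 0.000423 and 0.00513; limma, BH).

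Of 19 genes for anchoring and trafficking of GABA-A receptors, 4 were called higher and 6 lower at P60, with a median of 0.00, where 18.3% and 19.3% of all genes were called. Clptm1, which holds subunits in the endoplasmic reticulum, Insyn1, an inhibitory postsynaptic protein, Nlgn2, the neuroligin of inhibitory synapses, and Gabarap, a receptor-associated trafficking protein, were lower (-0.32, -0.34, -0.24 and -0.36; adjusted p from 1.49e-05 to 0.00323, limma, BH). Plcl1, a binding partner of beta subunits, Shisa7, an auxiliary subunit, and Iqsec3 were among the higher ones (0.37, 0.23 and 0.12). Gephyrin (Gphn), the scaffold of inhibitory synapses, was at 0.13 (adjusted p = 0.117; limma, BH). Of 12 genes for GABA synthesis, transport, breakdown and GABA-B receptors, 4 were called higher and 5 lower, with a median of 0.05, against the same 18.3% and 19.3% of all genes. The GABA-making enzymes Gad1 and Gad2 and the GABA-degrading enzymes Abat and Aldh5a1 were higher (0.17, 0.20, 0.13 and 0.15), and the chloride importer Slc12a2, the GABA uptake carrier Slc6a11 and the vesicular carrier Slc32a1 were among the lower ones (-0.24, -0.18 and -0.13). None of the genes tested from these 3 lists was called between genotypes (limma, BH), and at an unadjusted p under 0.05 there were 0 at P25 and 0 at P60. Between ages, Clptm1, Insyn1, Nlgn2 and Gabarap were each called lower in KO mice. In WT mice only Clptm1 and Insyn1 were (adjusted p = 0.122 for Nlgn2 and 0.0698 for Gabarap; limma, BH). For genes of these 3 lists, no values were taken with the length and GC trend removed or with a library left out.

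**Figure D5:**
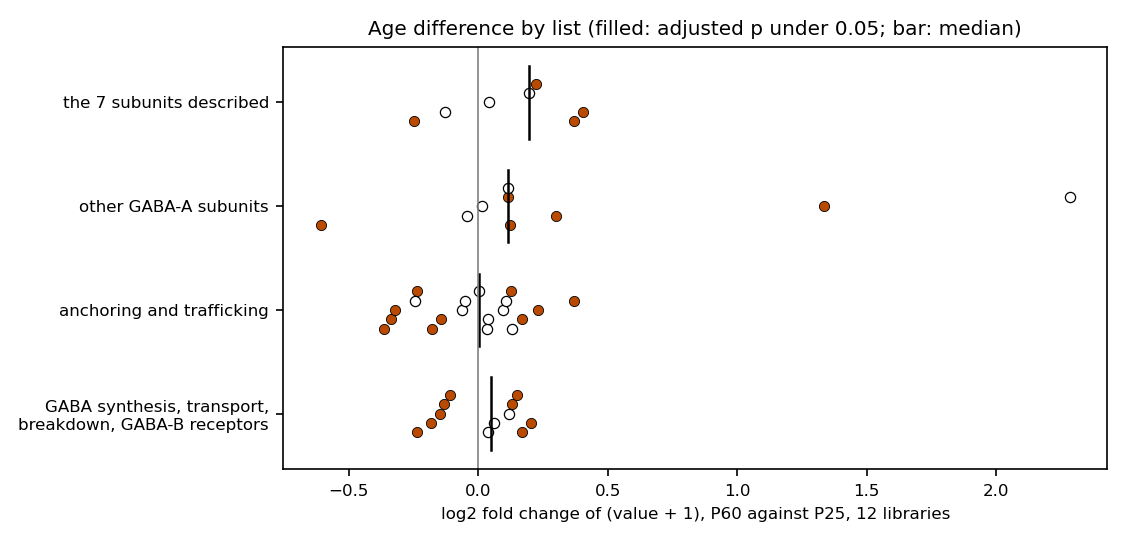
Log2 fold change on the log2(value + 1) scale between P60 and P25 over all 12 libraries (horizontal axis) for the 7 subunits and the 3 other lists; each point is a gene, filled where the adjusted p is under 0.05, and vertical bars are medians. The 7 subunits run from -0.25 to 0.41, and the medians of the other lists lie between 0.00 and 0.12.

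Cell type markers moved with age as well. All 8 oligodendrocyte markers were called lower at P60, their sum falling from between 409880 and 533440 normalized counts at P25 to between 200820 and 227980 at P60, and all 5 blood markers and 6 of 8 astrocyte markers were called lower. Of 8 glutamatergic neuron markers, 1 was called higher and 4 lower (sums of 156170 to 165310 at P25 and 135200 to 140660 at P60). Of 12 pan-neuronal markers, 4 were called higher and 3 lower, with a median of 0.00. Of 8 GABA interneuron markers, 2 were called higher and 3 lower. Over all genes tested, 18.3% were called higher and 19.3% lower. The part of these markers in the values of the 7 genes was not tested.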

How the data were processed

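RNA-seq libraries had been prepared with the TruSeq RNA Sample Prep Kit v2. According to the methods and the submitters' processing notes, the authors quantified transcripts with Salmon 1.1.0 (with a GC bias correction), imported them with tximport and normalized them with DESeq2 1.26.0 in R 3.6.2 (GRCm38). These versions are those of the notes, and the methods give others for R and the normalization package. The deposited values are signal on a count scale, normalized counts of each gene, and are not whole reads, so no count model was used. Groups and replicate numbers came from the sample titles. The study gives 3 mice per group, so p-values measure the spread between animals and libraries together.

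Tests were run on log2(value + 1), for genes whose mean in the fit reached 10, with limma 3.58.1 in R 4.3.3 (intensity trend, Benjamini-Hochberg adjustment over all genes tested, threshold 0.05). Such fold changes understate the change of low genes. Within-age and within-genotype comparisons used 6 libraries. Comparisons over both ages or genotypes and the interaction used all 12. The comparisons share libraries. Transcript lengths, positions and GC content came from GENCODE M21. Alternatives changed the pseudocount, minimum mean, scaling, variance model, block, length and GC trend (splines with 5 degrees of freedom) and libraries. Leaving out the 2 libraries with cerebellar markers was added after the data had been seen. Members follow a list of symbols that uses no measured value, but the members and gene lists were chosen with earlier results of these data known. Named genes were the members, Shank3, up to 4 per direction and list with the smallest adjusted p, the 2 genes most like each member, and cluster neighbours. Gphn was added after its value was seen. Some genes that the rule takes in are not reported here. The fold changes that the procedure returns were checked on simulated data. There every gene was given the same relative spread beyond counting noise, unlike the measured genes. Tables were handled in Python 3.11.15 with pandas 2.3.3.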

Additional observations from a re-analysis of the deposited data

How the results depend on the processing

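With 3 libraries per group and unknown depth, small differences could not be resolved, and for Gabra2 not even moderate ones. Of 966 member values under alternatives, 29 lost a call, 8 gained one and 929 stayed on their side of the threshold. The sign changed in 45, and none of these was a called value. The number of members called for age in WT mice, 2, became 0 without an intensity trend and 1 with the length and GC trend removed, and ran from 0 to 3 when a library was left out. In KO mice it went from 4 to 1 and 2 under the same settings, and ran from 2 to 3 when a library was left out. The genes called in the whole table went from 1521 to 192 in WT and from 3641 to 1725 in KO mice without the intensity trend. With all 12 libraries in the fit they were 3439 and 2499, and without a library they ran from 122 to 2403 in WT and from 2093 to 3230 in KO mice. Between genotypes, 1 gene, Shank3, was called at each age. At P25 this became 0 with pan-neuronal centring, no intensity trend, the replicate block, or the length and GC trend removed, and ran from 0 to 8 when a library was left out (0 without P25-KO replicate 1 or 2, 2 without P25-KO replicate 3 and 8 without P25-WT replicate 1). At P60 it became 0 without the intensity trend, ran from 1 to 3 when a library was left out (3 without P60-KO replicate 1, 2 without P60-WT replicate 1), and was 3 without the 2 libraries with cerebellar markers. Scaled to equal totals, the genes called higher and lower changed from 644 and 877 to 991 and 681 in WT mice, from 1649 and 1992 to 2108 and 1620 in KO mice, and from 3219 and 3397 to 4038 and 2730 over both genotypes. Centred on the pan-neuronal markers they were 1616 and 1332 in KO mice. The 4 members called over both genotypes kept their direction under each scaling. The cause of these changes was not tested.

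Same-numbered libraries correlated at between -0.07 and 0.17 in their deviations from the group means, and in no comparison were all correlations above 0.1. The sample titles do not say whether same-numbered libraries share more than the number, and correlations this few cannot settle it. With the replicate number as a block, the members called were 2 in WT mice, 3 in KO mice (Gabra3 lost, adjusted p = 0.114, limma with Benjamini-Hochberg adjustment) and 4 over both genotypes, and 0 between genotypes or in the interaction. The whole-table counts under the block were 1791 in WT and 2482 in KO mice.

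Levels per kilobase depend on the length. With the median protein-coding transcript they were 462 for Gabra2, 1266 for Gabra3, 1346 for Gabra4, 716 for Gabra5, 624 for Gabrb1, 1392 for Gabrb2 and 957 for Gabrd. With the longest they were 462 for Gabra2, 942 for Gabra3, 330 for Gabrb1, 788 for Gabra4, 699 for Gabra5, 965 for Gabrb2 and 957 for Gabrd.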
